A study of Mus musculus with 6 samples.

Results

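Chromatin regions that CUT&RUN called in exactly 2 of 3 GATA4 libraries and exactly 2 of 3 GATA6 libraries of mouse XEN cells are described here. The calls of all 6 libraries were merged wherever regions overlapped or touched, which gave 201994 merged regions, and 1690 of them (0.837%) had this library support. The members were thus chosen by the calls themselves, that is, by measured signal, so their number, their calls and their signal are given as a description with no test. A region joined the combined list of a factor when all 3 libraries of that factor held it, and 0 of the 1690 members overlapped the GATA4 or the GATA6 combined list. Position in the genome and DNA sequence were not used to choose the members, and these carry the tests.

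The study asked whether the endoderm program of XEN cells holds back their conversion to pluripotency, and the binding maps locate GATA4 and GATA6 in those cells. All 6 libraries were made from the 3F2 XEN line at 500000 cells per reaction, with 3 libraries per antibody and the labels name no knockout or treatment in either group. Per the study's methods, the 3F lines came from mice that carry the Col1a1 TetO-OKSmCh cassette, the R26 M2rtTA transactivator and an Oct4-GFP reporter, so both groups share these alleles. The methods also name a 3F6 line and fewer replicates than the labels do, and separate cultures are not stated, so the spread between libraries may be technical. The lists held 42446 to 49597 regions per library, and the labels state 30 M reads per sample. How many reads passed the filters is not stated per library, so the depth behind each list is unknown. Lists of bound regions cannot show whether the cells express endoderm markers.

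GATA4 and GATA6 are zinc finger transcription factors that specify the primitive endoderm of the blastocyst, from which XEN cells are derived. Both proteins bind short DNA sites with a GATA core and are known to bind mainly at enhancers away from gene starts. In CUT&RUN an antibody tethers micrococcal nuclease to the bound protein, and the released fragments pile up over the site. The caller used here, SEACR, reports each block of piled-up fragments with its summed and its highest signal.

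The motif searched was the GATA site, that is AGATAA and the spellings that start with T in place of A or end with G in place of A, on either strand, with its first base within 100 bp of the summit. The summit of a merged region was the median, over the libraries that called it, of the middle of the stretch of highest signal. The 6 distal members with a motif and the highest signal rank are shown first, because distal members are where the motif was found most often. Distal means that the summit lay over 1 kb from any annotated transcription start site (TSS) of a protein-coding or lncRNA gene. Sequences are the plus strand of GRCm38 (mm10), capitals mark the motif, and TTATCA or CTATCT is the same site read on the other strand. They come from an intron of Dock2 (chr11:34681823-34682028), an intergenic stretch whose nearest protein-coding gene is Tyrp1 (chr4:80002414-80002619), and introns of Fads2 (chr19:10094813-10095018), Dock5 (chr14:67919239-67919444), Maml3 (chr3:52102138-52102343) and Amotl2 (chr9:102726485-102726690).
Dock2: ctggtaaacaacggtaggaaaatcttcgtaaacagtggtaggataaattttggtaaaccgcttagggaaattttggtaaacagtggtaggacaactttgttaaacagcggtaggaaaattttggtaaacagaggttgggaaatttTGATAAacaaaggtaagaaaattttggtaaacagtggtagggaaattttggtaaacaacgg
Tyrp1: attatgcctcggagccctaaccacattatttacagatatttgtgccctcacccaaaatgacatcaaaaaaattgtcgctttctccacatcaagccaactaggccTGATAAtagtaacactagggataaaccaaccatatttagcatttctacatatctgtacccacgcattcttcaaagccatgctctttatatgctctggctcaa
Fads2: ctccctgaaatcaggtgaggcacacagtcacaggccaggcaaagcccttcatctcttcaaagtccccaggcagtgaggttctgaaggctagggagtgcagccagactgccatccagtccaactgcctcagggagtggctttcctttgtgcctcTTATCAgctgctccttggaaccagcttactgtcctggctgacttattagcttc
Dock5: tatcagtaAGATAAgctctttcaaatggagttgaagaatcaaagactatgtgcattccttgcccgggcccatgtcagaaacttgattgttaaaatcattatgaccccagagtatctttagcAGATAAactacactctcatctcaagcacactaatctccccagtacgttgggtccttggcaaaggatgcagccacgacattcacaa
Maml3: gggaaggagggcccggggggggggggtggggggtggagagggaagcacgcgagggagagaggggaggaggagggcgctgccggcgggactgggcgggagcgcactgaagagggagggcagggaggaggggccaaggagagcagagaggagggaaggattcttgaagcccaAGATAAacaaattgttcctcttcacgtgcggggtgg
Amotl2: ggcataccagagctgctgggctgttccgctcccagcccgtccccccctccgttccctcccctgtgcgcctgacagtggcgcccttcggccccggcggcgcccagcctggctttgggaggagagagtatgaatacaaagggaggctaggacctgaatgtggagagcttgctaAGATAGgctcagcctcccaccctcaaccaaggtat

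The next members are shown because they lie at genes of the endoderm program itself. These are an intron of Gata4 (chr14:63233850-63234055), an intergenic site near the basement membrane gene Lama1 (chr17:67685495-67685700) and an intron of Lamb1 (chr12:31269552-31269757).
Gata4: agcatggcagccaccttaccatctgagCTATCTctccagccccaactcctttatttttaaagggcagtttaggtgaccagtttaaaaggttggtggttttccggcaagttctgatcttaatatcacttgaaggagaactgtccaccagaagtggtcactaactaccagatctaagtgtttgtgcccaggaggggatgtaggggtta
Lama1: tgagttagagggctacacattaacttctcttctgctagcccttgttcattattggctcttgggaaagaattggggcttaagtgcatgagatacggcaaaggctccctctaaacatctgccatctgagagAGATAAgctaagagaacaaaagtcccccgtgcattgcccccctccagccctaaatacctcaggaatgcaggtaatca
Lamb1: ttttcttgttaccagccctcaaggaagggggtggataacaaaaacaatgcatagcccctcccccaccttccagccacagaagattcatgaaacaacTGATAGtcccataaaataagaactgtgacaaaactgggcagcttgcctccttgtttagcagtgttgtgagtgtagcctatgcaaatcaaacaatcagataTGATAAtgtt

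Promoter members looked different. The 2 promoter members of highest signal rank, at Slc16a13 (chr11:70221057-70221157) and Lars2 (chr9:123366761-123366861), and the member at the Tcf19 promoter near Pou5f1 (chr17:35516879-35516979) are shown with the GC box GGGCGG, on either strand, in capitals. The printed stretches reach 50 bp to each side of the summit and hold no GATA motif, but at Slc16a13 a match lay 71 bp from the summit, outside the stretch, and this member counts as one with a motif. Lars2 and Tcf19 had no match within 100 bp.
Slc16a13: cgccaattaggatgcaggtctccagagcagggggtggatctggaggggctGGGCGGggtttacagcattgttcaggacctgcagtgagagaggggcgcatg
Lars2: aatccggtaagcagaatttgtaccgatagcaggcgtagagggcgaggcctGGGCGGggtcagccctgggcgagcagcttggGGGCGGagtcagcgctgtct
Tcf19: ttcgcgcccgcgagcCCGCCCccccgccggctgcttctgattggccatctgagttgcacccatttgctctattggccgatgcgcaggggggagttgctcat

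Of the 1690 members, 783 had their summit within 1 kb of a TSS (46.3%, exact 95% interval 43.9 to 48.7), against 10.0% of all merged regions. The remaining 907 were distal. By annotation 448 members were intronic (26.5%) and 412 intergenic (24.4%), while 17 lay in UTR exons, 10 in coding exons and 20 in other exons. Promoter summits sat close to the start site, at a median distance of 60 bp. Distal summits lay at a median of 11969 bp, with quartiles of 4408.5 and 27928.5 bp, and 130 of them were over 50 kb away. Members were 159 to 2796 bp wide, with a median of 718.5 bp. All intervals cover counting error only.

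The promoter share of the members lay between those of better and less well supported regions. It was 54.6% among the 3793 regions called in all 6 libraries. The difference, members minus comparator here and below, was -8.27 percentage points (95% interval -11.1 to -5.41) and passed Fisher's exact test over regions with Benjamini-Hochberg adjustment over 8 tests (adjusted p = 2.53e-08). Without chromosomes 8, 14 and 19 the shares were 53.2% for the members and 55.3% for regions called in all 6 libraries, and the difference no longer passed (adjusted p = 0.22, same Fisher's exact test). The 1835 regions called in 4 libraries split 3 and 1 between the factors had 41.6%, a difference of 4.75 points (1.47 to 8.02, adjusted p = 0.0048, Fisher's exact test). That difference varied with the library that lacked the call in the members, while the comparator was kept whole. Among the members that did not rest on GATA4 replicate 3 it was 2.21 points (adjusted p = 0.349, Fisher's exact test), and among those that did not rest on GATA6 replicate 3 it was -0.97 points (adjusted p = 0.725). The 7760 regions called in 2 libraries of 1 factor and in none of the other had 15.1%, a difference of 31.3 points (28.8 to 33.8, adjusted p = 1.37e-156, Fisher's exact test).

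Set against single classes, chosen after the data had been seen, the members had a higher promoter share than the regions with 3 GATA4 and 1 GATA6 libraries (40.3%, adjusted p = 0.00123 by Fisher's exact test, adjusted over 12 such tests). No difference was detected from the 370 regions with 1 GATA4 and 3 GATA6 libraries (46.5%, difference -0.16 points, 95% interval -5.77 to 5.40). A share of 58.2% among the 901 regions with 2 GATA4 and 3 GATA6 libraries was higher than the members' 46.3% (adjusted p = 1.92e-08, Fisher's exact test), while 48.8% among the 2299 regions with 3 GATA4 and 2 GATA6 libraries was not separable from it (difference -2.52 points, -5.64 to 0.62).

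**Figure D1:**
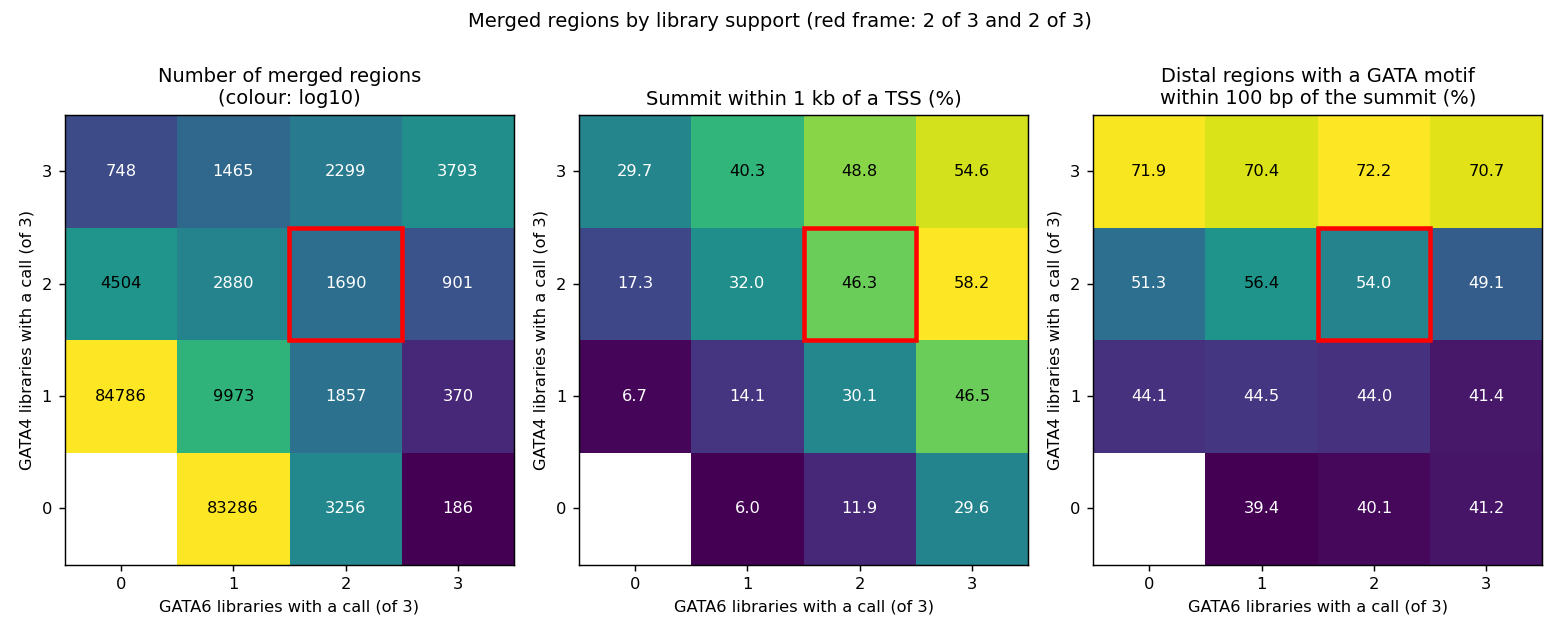
Merged regions by the number of GATA4 libraries (vertical) and GATA6 libraries (horizontal) that called them, with the 1690 members framed in red. Left, the number of regions; middle, the share with a summit within 1 kb of a TSS, 46.3% in the members; right, the share of distal regions with a GATA motif within 100 bp of the summit, 54.0% in the members, which changes from row to row more than from column to column.

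The GATA motif was found at 490 of the 907 distal members (54.0%, exact 95% interval 50.7 to 57.3), against 43.0% of all distal merged regions. A single match was present in 263 distal members, 227 held at least 2 and 417 held none. In windows 2 kb to each side of the same members the share was 30.7%. The summit window held the motif more often than the flanks in 437 members and less often in 203, which passed the exact two-sided sign test (adjusted p = 3.23e-20). Matches gathered within about 100 bp of the summit and fell to the level of the surroundings beyond it, as the profile around the summit shows.

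Promoter members showed the opposite picture. Only 119 of 783 held a GATA motif at the summit (15.2%), against 25.1% of all promoter merged regions, and their own flanks held one in 34.8%. The summit was higher than the flanks in 98 promoter members and lower in 370 (adjusted p = 1.29e-37, exact sign test). This pattern was not particular to the members. Promoter regions called in all 6 libraries held the motif in 17.3% at the summit and 30.9% in the flanks. With 2 GATA4 and 3 GATA6 libraries the shares were 11.6% and 29.3%, and with 2 GATA4 libraries alone 26.4% and 32.9%. Base composition differed as well: the median GC content of the window was 63.2% in promoter members and 48.3% in distal members, and the median ratio of observed to expected CpG was 0.789 and 0.214. The part of base composition in the motif difference was not tested.

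**Figure D2:**
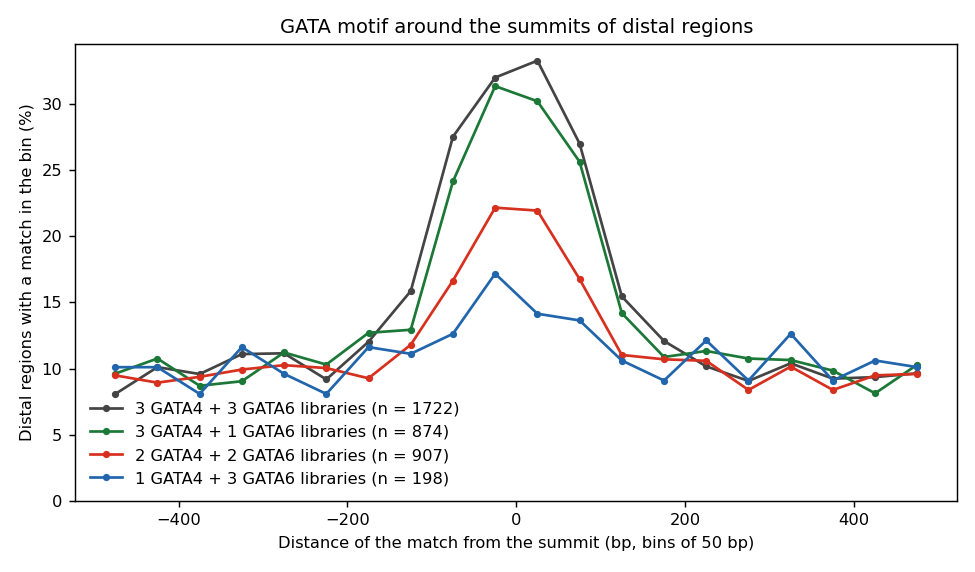
Share of distal regions with a GATA motif in each 50-bp bin of distance from the summit, for the members (red, n = 907) and for regions called in all 6 libraries, in 3 GATA4 and 1 GATA6 libraries, or in 1 GATA4 and 3 GATA6 libraries. The red curve peaks at the summit between the 2 classes with 3 GATA4 libraries above it and the class with 1 GATA4 library below it.

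Distal members held the motif less often than regions called in all 6 libraries. The distal share was 70.7% in regions called in all 6 libraries, a difference of -16.6 points (-20.5 to -12.8, adjusted p = 7.74e-17, Fisher's exact test over regions), and 65.0% in regions called in 4 libraries split 3 and 1, a difference of -11.0 points (-15.3 to -6.66, adjusted p = 1.08e-06). Regions called in 2 libraries of 1 factor and none of the other had 46.4%, a difference of 7.58 points (4.11 to 11.0, adjusted p = 2.33e-05, Fisher's exact test). That last difference depended on the window: with 250 bp to each side of the summit it was -0.25 points (adjusted p = 0.872, Fisher's exact test).

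The class of 4 libraries split 3 and 1 was not uniform. Its regions with 3 GATA4 and 1 GATA6 libraries had the motif in 70.4% of distal cases, a difference of -16.3 points (adjusted p = 2.99e-12, Fisher's exact test over the 12 added tests). Its regions with 1 GATA4 and 3 GATA6 libraries had it in 41.4%, a difference of 12.6 points (4.93 to 19.98, adjusted p = 0.00247, Fisher's exact test). With the number of libraries held at 4, the members thus lay between the GATA4-weighted and the GATA6-weighted split, and both differences passed. The choice of these tests followed a look at the values.

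The same order appeared on either side of the members. Raising the GATA4 support to 3 libraries, with GATA6 at 2, gave 72.2% (a difference of -18.2 points, adjusted p = 4.49e-17, Fisher's exact test). Raising the GATA6 support to 3, with GATA4 at 2, gave 49.1%, a difference of 4.95 points that was not separable from 0 (-1.04 to 10.9, adjusted p = 0.139, Fisher's exact test) and that passed when chromosomes 8, 14 and 19 were left out (8.68 points, adjusted p = 0.0273). Distal regions with 2 GATA4 libraries and no GATA6 library had 51.3%, a difference of 2.71 points (-0.92 to 6.31, adjusted p = 0.162, Fisher's exact test). Those with 2 GATA6 libraries and no GATA4 library had 40.1%, a difference of 13.9 points (10.2 to 17.6, adjusted p = 7.32e-13, Fisher's exact test). Read against their own flanks, distal members exceeded them by 23.3 points, regions with 2 GATA4 libraries alone by 15.5 points and regions with 2 GATA6 libraries alone by 3.61 points. The flanks of the last 2 classes held the motif in 35.8% and 36.5%, above the 30.7% of the members' flanks, and the distal GC medians were 44.3%, 43.3% and 48.3%. The part of local base composition was not tested.

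In the distal members the motif share was higher only in the bin of highest signal rank. Because the pileups were not scaled for depth, the summed signal of a call is expressed as its percentile within the list of its own library. Of 127 distal members with a mean percentile of at least 80, 69.3% held the motif (60.5 to 77.2), against 51.9% of 403 between 60 and 80 and 51.2% of 377 below 60. Regions with 3 GATA4 and 1 GATA6 libraries had 78.7%, 70.1% and 62.4% in the same order. Those with 1 GATA4 and 3 GATA6 libraries had it in 7 of 28 regions, in 44.7% of 85 and in 43.5% of 85, so a higher rank did not go with a higher motif share there. Signal took part in choosing the members, so these values are given without a test.

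**Figure D3:**
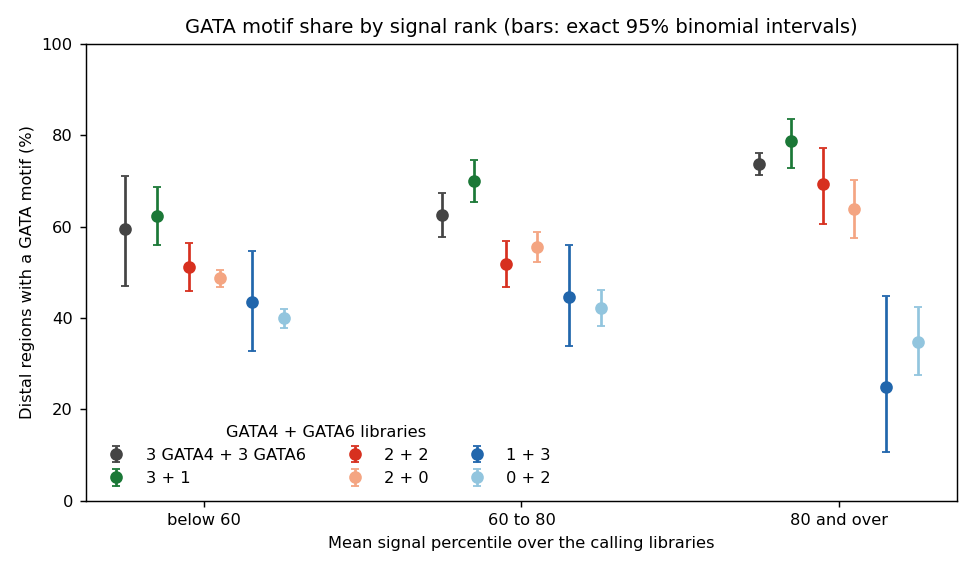
Share of distal regions with a GATA motif (vertical, %) in 3 bins of mean signal percentile (horizontal), by library support, with exact 95% binomial intervals. The members (red) lie at 51.2%, 51.9% and 69.3%, below the class with 3 GATA4 and 1 GATA6 libraries and above the class with 1 GATA4 and 3 GATA6 libraries in each bin.

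Other sites were counted in the same windows. The AP-1 site, TGACTCA or TGAGTCA, to which Fos and Jun proteins bind, was present in 96 of 907 distal members (10.6%) against 4.62% of all distal merged regions, and in 10.5% of the distal regions called in all 6 libraries. It stood together with a GATA motif in 54 distal members and without one in 42. The TEAD core GGAATG was present in 14.8% of distal members and 12.1% of all distal regions, the Sox core ACAATNG in 14.1% and 9.39%, and the forkhead site TGTTTAC in 3.97% and 3.43%. In distal regions called in all 6 libraries the shares were 20.3%, 18.9% and 3.77%. The TEAD and Sox cores were thus less frequent in the members than in those regions. In promoter members the GC box GGGCGG, read by Sp and Klf factors, was present in 481 of 783 (61.4%) against 33.6% of all promoter regions. The Ets site CCGGAAG was present in 124 (15.8%) against 8.03%. Neither share was particular to the members. Promoter regions called in all 6 libraries had the GC box in 63.4% and the Ets site in 14.9%. Those with 1 GATA4 and 3 GATA6 libraries had them in 62.8% and 16.9%. None of these sites contains the GATA motif, and a match is a description, not evidence that the factor was bound.

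Each library missed a similar share of the members. By the rule 1 library of each factor lacks a call, and it was GATA4 replicate 1, 2 or 3 in 502, 560 and 628 members, and GATA6 replicate 1, 2 or 3 in 535, 628 and 527. The 9 combinations of 1 missing GATA4 and 1 missing GATA6 library held 143 to 228 members each. In 569 members (33.7%) the missing libraries carried the same number, as they do in 3 of the 9 combinations. The distal motif share was 52.4% to 55.7% whichever library lacked the call. The promoter share ranged more widely, from 40.6% where GATA6 replicate 3 lacked the call to 49.7% where GATA6 replicate 1 did. In the missing library the nearest call of its own lay at a median of 6733.5 to 10235 bp, and 12.7% to 17.7% of the members had one within 1 kb.

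Members were also set against the other calls of each library, most of which were made in that library alone. Between 53.3% and 54.8% of the distal members in a library held the motif, against 42.4% to 49.1% of the other distal regions of that library, so the members were higher in 6 of 6 libraries. Each member enters 4 of these 6 comparisons, so they are not independent, and the classes with 3 GATA4 libraries lay above the members. The margin was 5.33 to 6.79 points in the GATA4 libraries and 10.4 to 12.02 points in the GATA6 libraries. Promoter shares were 44.8% to 48.9% against 15.5% to 17.9%.

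The signal of the members was moderate. Their median percentile was 69.5 to 74.8 in the 6 libraries, against 92.1 to 94.2 for regions called in all 6 and 37.0 to 40.7 for regions called in 1. The highest pileup under a member had a median of 5 or 6 fragments and reached 34, in GATA4 replicate 2. A member with that value shared a run of 25 bases with the mouse mitochondrial genome, as described below for 5 members. The highest values of GATA4 replicate 1 (29), GATA6 replicate 2 (28) and GATA6 replicate 3 (25) equalled those of another of these 5. Regions just outside the rule were more numerous on the side of lower support: 2880 had 2 GATA4 and 1 GATA6 libraries and 1857 had 1 and 2, while 2299 had 3 and 2 and 901 had 2 and 3.

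**Figure D4:**
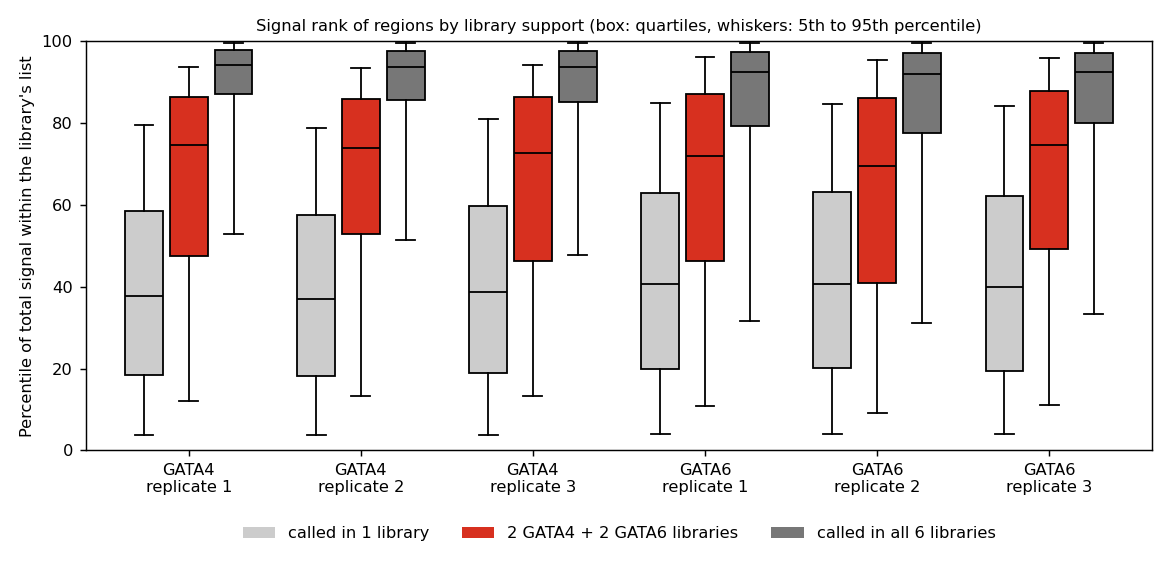
Percentile of summed signal within the list of each library (vertical) for regions called in 1 library, for the members (red) and for regions called in all 6 libraries. Boxes are quartiles and whiskers the 5th and 95th percentiles; the member medians lie between 69.5 and 74.8, between those of the other classes in all 6 libraries.

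Summits were compared between the libraries that called a member, whose calls were merged because they overlapped or touched, so the rule itself keeps them near each other. The summits of the 2 GATA4 calls of a member lay a median of 47 bp apart, those of the 2 GATA6 calls 51 bp, and a GATA4 and a GATA6 summit 48 bp. Summits of the 2 factors were thus about as far apart as those of 1 factor. Over all 4 calling libraries the range of the summits had a median of 115 bp and an upper quartile of 314.75 bp, and 760 members (45.0%) had all 4 within 100 bp. In 1442 members (85.3%) at least 1 base was called in all 4 libraries, and in the other members the calls were joined only through each other.

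The strongest members were of both kinds. In the Dock2 intron (Dock2 encodes a guanine nucleotide exchange factor of Rac), 6556 bp from the TSS, the highest pileups were 12 and 17 fragments in GATA4 replicates 1 and 3 and 12 and 12 in GATA6 replicates 1 and 2, and the mean percentile was 98.05. All 4 values were near the top of their lists, between the 97.2 and the 99.2 percentile, although GATA4 replicate 2 and GATA6 replicate 3 had no call. The printed Dock2 stretch consists largely of near-copies of the run ggtaaacagtggtagg. Whether this repetition affected the calls was not tested. The promoter of Slc16a13, a monocarboxylate transporter gene, followed with a mean percentile of 96.5 and pileups of 11, 10, 9 and 6. The promoter of Lars2, the mitochondrial leucyl-tRNA synthetase, had 94.8, that of Cep250, a centrosomal protein, 94.7, and that of Aph1b, a gamma-secretase subunit, 94.4.

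Further distal members of high rank lay in introns of Fads2, a fatty acid desaturase (mean percentile 94.5), Dock5 (94.4), Maml3, a coactivator of Notch (94.3), and Amotl2, a binding partner and inhibitor of YAP (93.6). At Fads2 the pileups were 9 and 6 in GATA4 replicates 1 and 2 and 8 and 7 in GATA6 replicates 2 and 3. The motif lay 21 bp from the summit at Dock5, 53 bp at Fads2, 70 bp at Maml3 and 71 bp at Amotl2.

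The intergenic member nearest to Tyrp1 was 831609 bp from that gene. Its pileups of 29, 27, 28 and 25, in GATA4 replicates 1 and 2 and GATA6 replicates 2 and 3, were the highest of the named members. Its window of 100 bp to each side shared 14 of 177 runs of 25 bases with the mouse mitochondrial genome. In all, 5 members shared at least 1 such run, against 15 of 3793 regions called in all 6 libraries and 48 of 201994 merged regions. All 5 lacked a call in GATA4 replicate 3 and GATA6 replicate 1, the pair that was missing in 210 members overall. The authors removed reads assigned to the mitochondrial genome, and whether reads of mitochondrial origin contributed to these 5 calls was not tested.

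Genes near the members were counted within 50 kb of any of their start sites. Of 21911 protein-coding genes, 3627 (16.6%) had a member, and 831 of these (22.9%) had no region of either combined list in the same window. Over all protein-coding genes, 11411 (52.1%) had a combined region, so genes near members lacked one less often than genes at large. Among 26 XEN and primitive endoderm genes 11 had a member, and among 12 AP-1 genes 5 did. The counts were 7 of 26 pluripotency genes, 4 of 20 FGF and ERK feedback genes, 4 of 20 YAP and TEAD pathway genes and 4 of 24 BMP and Nodal pathway genes. A combined region lay near 21 of the 26 XEN and primitive endoderm genes, 10 of the 12 AP-1 genes and 12 of the 26 pluripotency genes. For the FGF, YAP and BMP lists the counts were 13 of 20, 17 of 20 and 16 of 24. The lists were chosen with earlier results known, and the shares are set beside 16.6% as a description.

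The endoderm genes with a member included Gata4, Gata6, Lama1, Lamb1, Lamc1, Col4a2, Thbd, Cubn, Apoe and Serpinh1. Both GATA factor genes held a member in an intron with a GATA motif. At Gata4, 11298 bp from the TSS, the pileups were 5 and 5 in GATA4 replicates 2 and 3 and 4 and 6 in GATA6 replicates 2 and 3. The percentiles were 82.2 and 34.0 in these GATA4 libraries and 91.2 and 91.7 in these GATA6 libraries. Among the libraries that called it, only GATA4 replicate 3 ranked it low, and replicate 1 of each factor had no call. At Gata6, 19223 bp from the TSS, the percentiles were 55.5, 59.8, 86.0 and 86.3. The same windows held 8 GATA4 and 4 GATA6 combined regions at Gata4, and 4 and 1 at Gata6.

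Of the same list, the laminin chain genes Lama1, Lamb1 and Lamc1 and the type IV collagen gene Col4a2 each had a member with a motif at the nearest site. At Lama1 the pileups were 12 and 6 in GATA4 replicates 1 and 2 and 4 and 4 in GATA6 replicates 1 and 2, with percentiles of 92.3, 83.7, 73.6 and 83.9. At Lamb1 they were 5 and 5 in GATA4 replicates 1 and 3 and 10 and 5 in GATA6 replicates 1 and 3. Each of these 4 genes also had 5 to 9 GATA4 combined regions and 4 to 7 GATA6 combined regions within 50 kb. Thbd, the thrombomodulin gene of parietal endoderm, had no combined region of either factor. Its member, 1080 bp from the TSS, held no motif and had percentiles from 5.93 to 83.6. Over the whole list, the nearest member held a motif at 8 of the 11 genes with a member. At Thbd, Apoe and Serpinh1 it held none, with mean percentiles of 35.0, 43.4 and 74.0.

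Among the AP-1 genes, Jun, Junb, Jund, Fosb and Batf had a member. Only that of Batf, 22644 bp from the TSS, held a GATA motif, and those of Jun and Junb lay within 1 kb of an annotated start site. Of the pluripotency genes Pou5f1, Nanog, Klf5, Dppa5a, Tdgf1, Lin28a and Crxos, all with a member, the nearest member held a motif at Nanog, Klf5 and Dppa5a. The Klf5 member, 23131 bp from the TSS and intergenic, had percentiles of 95.2 and 90.4 in GATA4 replicates 1 and 3 and 97.3 and 77.3 in GATA6 replicates 1 and 3. The member counted for Nanog lay 35983 bp away, at the promoter of the glucose transporter gene Slc2a3. The member counted for Pou5f1, the Oct4 gene, lay 8108 bp away at the Tcf19 promoter, and Pou5f1 had no combined region within 50 kb.

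At 10 of the 12 signalling genes with a member the nearest one held no GATA motif. Over all 1690 members 609 held one (36.0%), but the share was 15.2% in promoter members and 54.0% in distal members. The nearest member was a promoter member at Fgfr1, Spry2, Amotl2, Ccn1, Bmpr1a and Bmpr2, so the pooled share is not a matched reference. Spry2, an inhibitor of receptor tyrosine kinase signalling, had 2 members. The nearest, 548 bp from its TSS, held no motif, and the other, an intronic one, held a motif. Fgf8 had one 3626 bp away, with a motif and pileups of 12 and 14 in GATA4 replicates 1 and 2 and 11 and 13 in GATA6 replicates 1 and 3. Amotl2 and Ccn1, both known targets of YAP, had 2 members each, the nearest within 1 kb of an annotated start site. The other Amotl2 member is the intronic one shown above, which held a motif. Tead4 had an intronic member with a motif, and Tead2 one without. The receptor genes Bmpr1a and Bmpr2 had members 290 and 28 bp from the TSS, in GC-rich windows of 75.6% and 79.1% and with no motif. Acvr1b, an activin receptor, had a member 28428 bp away, nearer to Acvrl1, and no combined region. Frs2, Fgfr1 and Id1 completed these lists, with no motif at the nearest member.

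Members were unevenly spread over chromosomes. Chromosome 19 had 2.18 members per Mb, chromosome 8 had 1.26 and chromosome 14 had 0.905, whereas chromosome X had 0.170 and chromosome Y had 0. Chromosomes 8, 14 and 19 held 410 members (24.3%), on 11.6% of the sequence length. The excess over sequence length lay in distal members, of which 34.0% were on these chromosomes, against 13.0% of promoter members. Over all merged regions the share was 29.6%. Members made up 1.33% of the merged regions of chromosome 19, but 0.601% on chromosome 8 and 0.498% on chromosome 14, against 0.837% over all. Relative to the calls, only chromosome 19 of these was thus raised. It was not alone, since the share was 1.29% on chromosome 11, 1.25% on chromosome 17, 1.19% on chromosome 4 and 1.18% on chromosome 9. Without these chromosomes 343 of 599 distal members held the motif (57.3%), against 72.0% of regions called in all 6 libraries. Whether copy number of these chromosomes plays a part was not tested.

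**Figure D5:**
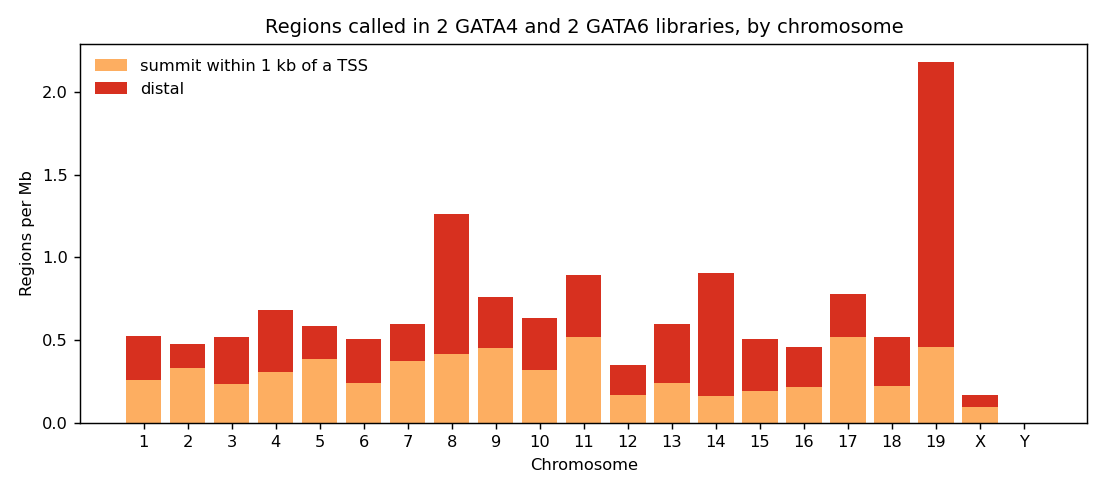
Members per Mb of each chromosome, split into those with a summit within 1 kb of a TSS (orange) and distal members (red). Chromosome 19 stands highest at 2.18 per Mb, followed by chromosomes 8 and 14, and most of the excess per Mb on these chromosomes is in the distal part.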

How the data were processed

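CUT&RUN regions of 6 libraries were used. The authors aligned reads to mm10 with Bowtie2 2.3.4.1, removed duplicates, reads of low mapping quality and mitochondrial reads, and called regions per library with SEACR 1.3 in stringent mode. The deposited lists give total and maximum signal, a pileup not scaled for depth, so signal was ranked within a library only. The combined lists give positions only. No IgG control values were used here.

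Groups came from sample titles. TSSs were those of GENCODE M21 and sequence that of GRCm38.p6, whose chromosome lengths held every region. Named regions were the 10 members, and the 6 distal members with a motif, of highest mean percentile; sequences were widened from 101 to 206 bp so that the match shows. Named genes were those of the 6 lists with a member within 50 kb, except that a listed gene is not reported here by name. Members and lists were chosen with earlier results of these data known. Motifs other than the GATA site, the other sequences shown and the mitochondrial comparison were added to the plan later, in part after values were seen. Tests were Fisher's exact test and the exact sign test, whose units are regions, not replicates, with Benjamini-Hochberg adjustment, Clopper-Pearson intervals for shares and Newcombe intervals for differences. The code was tested on simulated data. Software comprised statsmodels 0.14.6, scipy 1.17.1, pysam 0.24.0, pandas 2.3.3, numpy 2.4.6 and matplotlib 3.10.9 under Python 3.11.15.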

Additional observations from a re-analysis of the deposited data

How the results depend on the processing

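Of 107 alternative values, 94 kept the direction and the side of the threshold of the reported value or, for a count, stayed within 1.5 times of it. Members that did not rest on a given library numbered 502 to 628, which follows from the rule, since each member lacks 1 library of each factor. The promoter difference from regions called in 4 libraries split 3 and 1 ran from -0.97 to 8.14 points over such subsets. It was 2.21 points (adjusted p = 0.349, Fisher's exact test) among members that GATA4 replicate 3 did not call. Among members that GATA6 replicate 3 did not call it was -0.97 (adjusted p = 0.725, Fisher's exact test). Only the members were divided in this way, and the comparator was kept whole. The cause was not tested. Leaving out chromosomes 8, 14 and 19 took the promoter difference from regions called in all 6 libraries to -2.09 points (adjusted p = 0.22, Fisher's exact test), and the distal motif difference from regions with 2 GATA4 and 3 GATA6 libraries, an alternative chosen after seeing the data, to 8.68 points (adjusted p = 0.0273). The cause was not tested. A motif window of 250 bp took the distal motif difference from regions called in 2 libraries of 1 factor to -0.25 points (adjusted p = 0.872, Fisher's exact test), for which the cause was not tested. Windows of 10 kb and 100 kb gave 1459 and 5644 genes near a member, by construction. The number of members was 1442 where at least 1 bp had to be called in all 4 libraries, 1623 with lists of equal length and 1145 with the upper part of each list by signal. No paired analysis was possible because no test compares GATA4 with GATA6 libraries: the tests count merged regions, and the shares given per library are a description. Depth per library is unknown, and a call missing in a library does not show that the factor was absent there.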
